A study of Homo sapiens with 16 samples.

Results

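The metallothionein neighbourhood is a 7 Mb stretch of chromosome 16, from 53 to 60 Mb on hg38, with the metallothionein genes near its middle. Its members were all ATAC-seq peaks of 4 deposited peak lists in that stretch, joined into 1 region wherever peaks overlapped by 1 bp or more. The rule used position only and gave 739 regions of 220925 genome-wide. The metallothionein cluster, a 200 kb interval whose outermost regions start at base 56549825 and end at base 56750399, held 38 of them, and its flanks held 701.

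ATAC-seq cuts accessible DNA with a transposase, so that a peak marks open chromatin. All samples were labelled Huh7, a human liver cancer cell line. Sorafenib, a multikinase inhibitor given in liver cancer, was set against its solvent DMSO in 2 ATAC-seq libraries each (by their titles replicates 3 and 4 with sorafenib and replicates 1 and 2 with DMSO, while the deposited files number both pairs 1 and 2) and in 3 polyA RNA-seq libraries each. The labels gave no dose, no time, no further allele or agent, and no statement that replicates were separate cultures, so p-values measure the spread between these samples only. A further RNA-seq experiment, with MT1G overexpression, is not used here.

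Metallothioneins are small cysteine-rich proteins that hold zinc and copper and take up cadmium and other metals. In human cells they are encoded side by side on chromosome 16, and liver is a tissue where they are abundant. Their transcription is known to respond to the zinc sensor MTF1, which binds metal response elements in their promoters, and to glucocorticoids and oxidative stress.

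The RNA libraries held 16549330 to 21082356 counted reads with sorafenib and 18243722 to 21074785 with DMSO. The peak lists give no read numbers, so their depth is unknown. They held 139294 and 135671 peaks with sorafenib (replicates 3 and 4) and 131239 and 156760 with DMSO (replicates 1 and 2). Median peak widths genome-wide were 285 and 280 bp with sorafenib, against 449 and 384 bp with DMSO. The label was checked against 12 hepatocyte and hepatoma markers: 11 averaged under 10 normalized read counts, and ALB, APOB, GPC3 and FOXA2 were at 0 reads in all 6 libraries. The summed level of the 12 markers ran from 96.0 to 159 with sorafenib and from 339 to 355 with DMSO, nearly all of it HNF4A. Epithelial markers (KRT8, KRT18, EPCAM, CDH1) summed to 28232 to 30178 with sorafenib and 37522 to 46506 with DMSO, nearly all of it KRT8 and KRT18. CDH1 was low and overlapped between the groups, at 9.97 to 11.7 with sorafenib and 6.75 to 15.3 with DMSO. Stellate and fibroblast markers summed to 1039 to 1079 with sorafenib and 2335 to 2590 with DMSO, a difference that lay mostly in LUM (405 to 483 with sorafenib and 1696 to 1872 with DMSO). COL3A1 ran the other way, at 87.6 to 110 with sorafenib and 44.99 to 65.6 with DMSO, and COL1A1 overlapped between the groups. Endothelial markers summed to 32.9 to 53.5 with sorafenib and 66.5 to 75.3 with DMSO, with CDH5 lower and VWF higher (19.4 to 28.8 with sorafenib and 13.5 to 17.5 with DMSO), and leukocyte markers to 3.38 to 4.53 with sorafenib and 0 to 4.50 with DMSO. The samples therefore carried the Huh7 label without most of the transcripts that define hepatocytes, and the part of these marker differences in the results was not tested. In bulk samples fewer cells of a type and less RNA per cell cannot be told apart.

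Promoter sequences are shown for the metallothionein genes whose promoters carry the peak changes described next. The start of each gene is base 0, each window runs from 250 bases before to 50 bases after it on the plus strand, and capitals mark the core of the metal response element (TGCACNC or TGCGCNC, either strand). Sequences are from RefSeq on GRCh38.p14, in which 5 of the 16 metallothionein genes had a promoter entry (MT4, MT2A, MT1B, MT1H and MT1X). MT2A lies at chr16:56608334-56608633, MT1X at chr16:56682220-56682519 and MT1B at chr16:56651636-56651935. MT1H, at chr16:56669564-56669863, was added after its values were seen, as a promoter with many cores and no peak in any list.
MT2A: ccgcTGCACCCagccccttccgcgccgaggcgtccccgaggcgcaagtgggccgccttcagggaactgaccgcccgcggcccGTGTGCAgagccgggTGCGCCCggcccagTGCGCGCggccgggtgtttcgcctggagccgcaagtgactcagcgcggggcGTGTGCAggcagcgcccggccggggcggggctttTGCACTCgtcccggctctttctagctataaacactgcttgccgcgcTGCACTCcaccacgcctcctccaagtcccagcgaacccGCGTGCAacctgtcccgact
MT1X: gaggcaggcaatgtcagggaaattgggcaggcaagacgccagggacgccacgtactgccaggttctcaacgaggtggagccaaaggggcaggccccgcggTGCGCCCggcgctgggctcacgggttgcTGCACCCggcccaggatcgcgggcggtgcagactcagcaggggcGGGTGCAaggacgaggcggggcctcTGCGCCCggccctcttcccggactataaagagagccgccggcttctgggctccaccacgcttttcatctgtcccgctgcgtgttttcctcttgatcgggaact
MT1B: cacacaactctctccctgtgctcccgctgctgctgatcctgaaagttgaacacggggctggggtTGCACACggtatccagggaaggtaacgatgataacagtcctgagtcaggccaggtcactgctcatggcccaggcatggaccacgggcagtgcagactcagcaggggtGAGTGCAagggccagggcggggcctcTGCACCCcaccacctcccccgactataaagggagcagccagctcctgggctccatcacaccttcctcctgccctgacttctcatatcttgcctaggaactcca
MT1H: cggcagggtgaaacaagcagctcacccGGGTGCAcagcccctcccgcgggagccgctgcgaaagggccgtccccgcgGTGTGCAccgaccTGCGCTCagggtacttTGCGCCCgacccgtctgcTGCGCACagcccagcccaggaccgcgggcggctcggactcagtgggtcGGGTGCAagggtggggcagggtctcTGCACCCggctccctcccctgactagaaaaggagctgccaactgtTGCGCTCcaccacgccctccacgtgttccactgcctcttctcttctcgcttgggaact
The MT2A window held 8 cores, MT1X 4, MT1B 3 and MT1H 8. Of 35116 RefSeq promoter windows of the same length, 29.6% held at least 1 core, 2.30% at least 3, 0.601% at least 4 and 0.0199% at least 8. The AP-1 motif TGANTCA stood once in MT2A, at bases -104 to -98, and once in MT1B, at bases -146 to -140, and 7.71% of all windows held it. The antioxidant element TGACNNNGC stood once in MT2A, where it overlapped the AP-1 motif, and once each in MT1B and MT1X, with 13.3% of all windows holding it. The share of G and C was 72.0% in MT2A, 67.0% in MT1X, 60.3% in MT1B and 68.3% in MT1H. CpG dinucleotides were at 0.962 of the number that base composition gives in MT2A, at 0.776 in MT1X and 0.72 in MT1H, and at 0.259 in MT1B. These letter matches are a description of the windows and not of bound sites.

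Open chromatin over the metallothionein genes themselves differed between the groups more plainly than over the whole cluster. The 16 metallothionein gene spans add up to 25025 bp. Peaks covered 4396 bp (17.6%) and 4059 bp (16.2%) of them in the sorafenib lists, against 1425 bp (5.69%) and 1220 bp (4.88%) in the DMSO lists. Both sorafenib libraries lay above both DMSO libraries. With 2 libraries against 2 the exact two-sided permutation test cannot go below p = 0.333, which is the value it gave. Most of the covered length fell in MT2A, MT1E and MT1X, while 9 of the 16 spans held no peak base in any list.

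**Figure D1:**
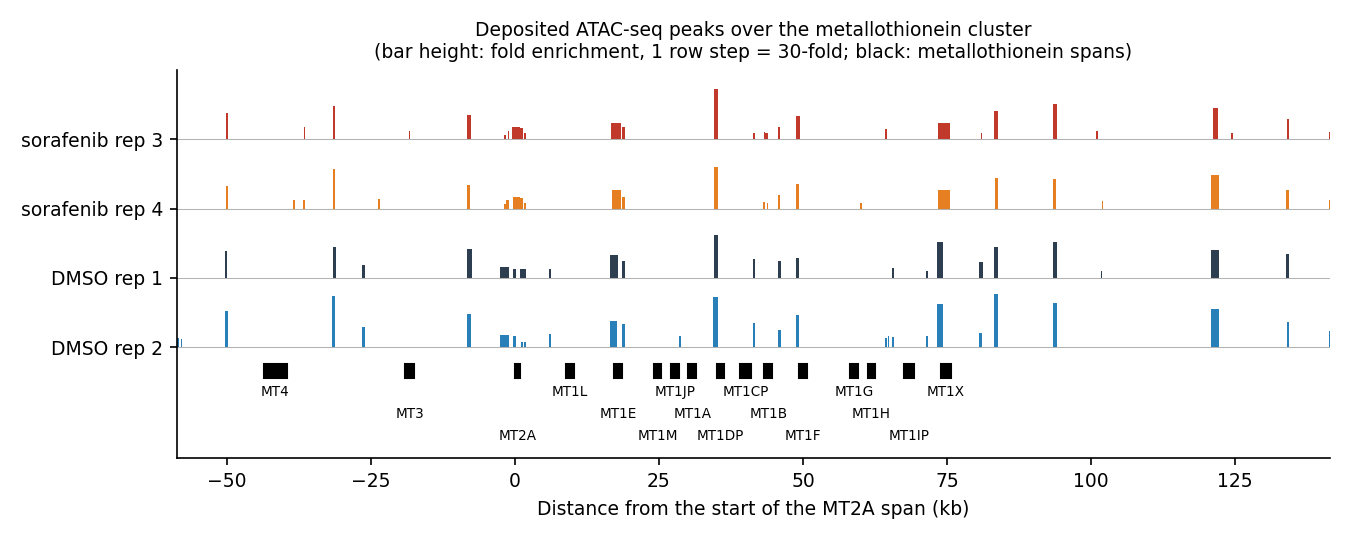
Peaks of the 4 lists over the metallothionein cluster, by distance from the start of the MT2A span in kb, with bar height giving the fold enrichment of each peak and black boxes the 16 metallothionein gene spans. The bars at MT2A, MT1E and MT1X extend further over the gene spans in both sorafenib lists than in both DMSO lists, and MT1B has peaks in the sorafenib lists alone.

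MT2A encodes the broadly expressed human metallothionein 2. Its promoter region (chr16:56608139-56609429) held a peak in all 4 lists, and that peak was 1257 and 1210 bp wide with sorafenib, against 426 and 474 bp with DMSO. The right edge of the peak stood 811 and 845 bases after the gene start with sorafenib, and 141 and 140 bases after it with DMSO. Peaks covered 88.8% and 92.6% of the MT2A span with sorafenib and 15.5% and 15.4% with DMSO. The summit, the base of highest pileup, lay 62 bases inside the gene in both sorafenib lists, and 17 and 95 bases before the start in the DMSO lists. Fold enrichment at the summit, the peak caller's signal over local background, was 5.48 and 5.22 with sorafenib, against 3.73 and 4.92 with DMSO. After each library was centred on its median over 75611 regions shared by all 4 lists, the log2 change of covered length was 1.98 (SE 0.12, limma adjusted p = 0.041) and that of enrichment was 0.68 (SE 0.22, limma adjusted p = 0.037). The enrichment call was lost when any 1 library was left out (adjusted p 0.0844 to 0.157), without centring (log2 change 0.32, adjusted p = 0.408) and after quantile normalization (0.55, adjusted p = 0.0849). The shared region just before that of MT2A (chr16:56606068-56607643) went the other way in length, with 576 and 766 covered bases with sorafenib, against 1537 and 1554 with DMSO. Its log2 change of covered length was -0.69 (SE 0.17, adjusted p = 0.0733) and that of enrichment was -0.11 (adjusted p = 0.735), so neither passed the test. A second promoter entry, of the uncharacterized gene LOC124903695 on the opposite strand, lies in the same region, so its accessibility cannot be told apart from that of MT2A.

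MT1X and MT1E encode isoforms of metallothionein 1, and their starts lay under a peak in all 4 lists too. In the MT1X region (chr16:56681866-56684095) the peak was 2060 and 2090 bp wide with sorafenib, against 1037 and 1059 bp with DMSO. Its left edge lay 471 and 464 bases before the start with sorafenib and 592 and 604 with DMSO, while its right edge stood 1588 and 1625 bases after the start with sorafenib and 444 and 454 with DMSO. Peaks thus covered 92.0% and 94.2% of the MT1X span with sorafenib and 25.8% and 26.3% with DMSO. In contrast to MT2A, fold enrichment at the MT1X summit was lower with sorafenib. It was 7.06 and 8.13 with sorafenib, against 15.4 and 18.7 with DMSO (log2 change -0.80, SE 0.17, limma adjusted p = 0.005). This value is a ratio to local background and not the height of the MT1X peak. The log2 change of its covered length was 1.51 (SE 0.06, limma adjusted p = 0.041). Its summit kept its place, 95 and 113 bases before the start with sorafenib and 95 and 96 with DMSO.

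The MT1E region (chr16:56625017-56627019) held a peak of 1668 and 1665 bp with sorafenib, against 1457 and 1223 bp with DMSO (log2 change 0.85, SE 0.09, limma adjusted p = 0.041). Its left edge lay 457 and 426 bases before the start with sorafenib and 744 and 764 with DMSO. Its right edge lay 1210 and 1238 bases after the gene start with sorafenib, and 712 and 458 bases after it with DMSO. Peaks covered 90.9% and 93.0% of the MT1E span with sorafenib and 53.5% and 34.5% with DMSO. The MT1E summit lay 310 bases inside the gene in both sorafenib lists, against 80 and 99 bases before the start in the DMSO lists. Fold enrichment of 7.15 and 7.98 with sorafenib, against 10.03 and 11.5 with DMSO, did not pass the test (log2 change -0.15, adjusted p = 0.60). For MT2A, MT1E and MT1X alike, the peaks thus reached further into the gene, whatever the change of fold enrichment at the summit. The width test was added after the values were seen, and the 3 width calls were lost whenever 1 library was left out (adjusted p 0.0898 to 0.197) and after quantile normalization (0.0637 to 0.0928). After quantile normalization the test called 0 of the 75611 shared regions genome-wide, and leaving out 1 library leaves 1 in a group. The lost calls are therefore not particular to these genes. The log2 width changes kept their direction in all these settings, from 1.86 to 2.07 for MT2A, 1.23 to 1.54 for MT1X and 0.53 to 0.96 for MT1E, and that of MT1E was 0.32 without centring (limma adjusted p = 0.115).

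**Figure D2:**
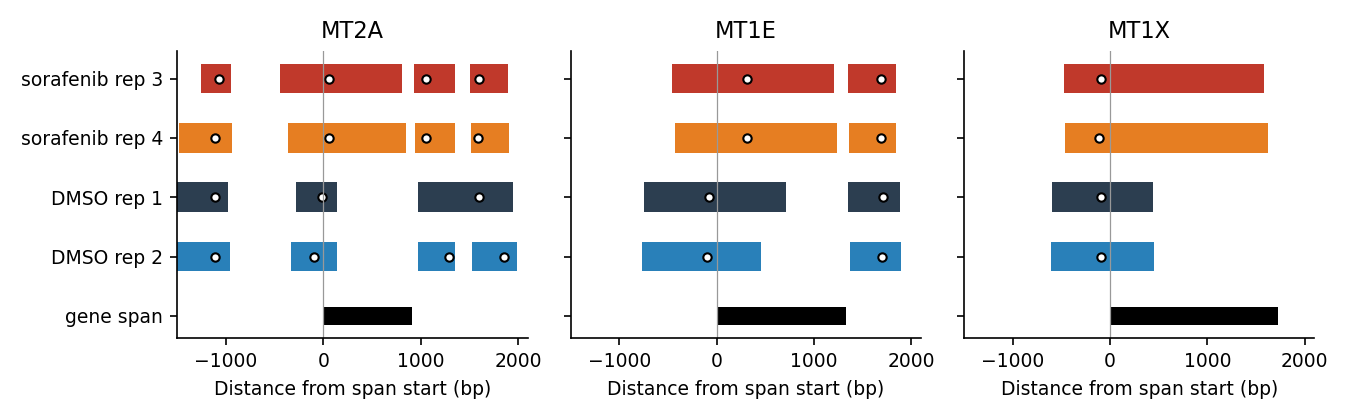
Peaks around MT2A, MT1E and MT1X in each list, by distance in bp from the start of the gene span, with white dots at the summits and black bars for the gene spans. The sorafenib bars that cover the gene starts reach 811 and 845 bases into MT2A, 1210 and 1238 into MT1E and 1588 and 1625 into MT1X, and the DMSO bars over the starts end nearer to them.

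MT1B, MT1DP, MT1F and MT1G showed other patterns. MT1B carried 2 regions found in both sorafenib lists and in neither DMSO list. One lay at its start (chr16:56651705-56651904, fold enrichment 3.38 and 2.74 with sorafenib) and the other inside the gene (chr16:56652040-56652494, 2.66 and 2.53 with sorafenib). In the region at the start, the peak of sorafenib replicate 3 covered the start and that of replicate 4 ended before it. These were weak peaks, and neither was kept in both sorafenib lists when peaks needed a −log10 q of at least 5. MT1DP, a transcribed pseudogene, had the highest fold enrichment of the metallothionein genes in all 4 lists, at 21.7 and 18.2 with sorafenib and 18.7 and 21.9 with DMSO. The groups overlapped, and the centred log2 change of 0.33 (SE 0.11, limma adjusted p = 0.042) turned to -0.03 without centring and lost its call without sorafenib replicate 3 or either DMSO replicate (adjusted p 0.0736 to 0.293). The MT1F region gave 10.3 and 10.8 with sorafenib, against 8.70 and 13.9 with DMSO, and did not pass the test (log2 change 0.29, adjusted p = 0.24). Around MT1G the single region was a 175 bp peak of the sorafenib replicate 4 list (chr16:56668486-56668660, fold enrichment 2.65), outside the gene span. MT1H, MT1A, MT1M, MT1L and MT4 spans held no peak base in any list, and MT3, a form known mainly from brain, held 171 bp in the sorafenib replicate 3 list and none in the others.

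The metallothionein starts were also set beside the other gene starts of the stretch. RefSeq listed 97 starts there with a promoter sequence, 5 of metallothioneins and 92 of other genes, with several starts for some genes. Over the 1000 bases after the start, peaks covered 880 and 906 bases at MT2A with sorafenib, against 174 and 164 with DMSO. At MT1X they covered all 1000 bases in both sorafenib lists, against 445 and 455 in the DMSO lists. At MT1B they covered 474 and 210 bases with sorafenib and 0 in both DMSO lists. These 3 had the largest sorafenib minus DMSO differences of the 97 starts (724, 550 and 342 bases). Among the 92 other starts 16 gained and 39 lost covered bases, with differences from -616.5 to 121 and a median of 0. Many of the 92 had no covered base in any list. The 51 of them open in all 4 libraries gave 12 that gained and 36 that lost, with a median of -28.5. Among the starts that gained was LOC124903695 (120 bases), which shares the MT2A region. The other 2 metallothionein starts, MT1H and MT4, were uncovered in all 4 lists.

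Counted as regions, the shares of gained and lost chromatin in the cluster lay near those of its flanks, a difference that was not tested. Of the 739 regions 283 (38.3%) had a peak in all 4 lists and are called shared, against 34.2% of regions genome-wide. Gained regions, present in both sorafenib lists and neither DMSO list, numbered 52 (7.04%), against 6.40% genome-wide. Lost regions, the reverse, numbered 70 (9.47%), against 12.0% genome-wide. The cluster held 16 shared (42.1%), 3 gained (7.89%) and 4 lost regions (10.5%) of its 38, and the flanks held 267 shared (38.1%), 49 gained (6.99%) and 66 lost (9.42%) of their 701. The rest were mixed, including 160 regions found in 1 sorafenib list only and 91 in 1 DMSO list only. Gained regions in the stretch ran from 53 to 138 when 1 library was left out, with 138 without sorafenib replicate 4 and 126 without sorafenib replicate 3, and came to 26 with peaks of a −log10 q of at least 5. Lost regions ran from 88 to 134, the highest without DMSO replicate 1. Leaving out a list removes a condition that gained or lost regions must meet, so the leave-out counts could not fall.

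The third gained region of the cluster (chr16:56571894-56572060, fold enrichment 5.19 and 3.70 with sorafenib) lay between MT4 and MT3, outside any gene span. The 4 lost regions lay between genes as well. The strongest of them was chr16:56582016-56582579, with 5.73 and 8.91 in the DMSO lists. The others were chr16:56614531-56614900 (3.90 and 5.54), between MT2A and MT1L, chr16:56674049-56674247 (4.33 and 4.17) and chr16:56679914-56680214 (3.13 and 4.77), on both sides of MT1IP. Both directions were thus present within the 200 kb of the cluster, and no lost region touched a metallothionein span.

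Most regions at promoters were shared. Of the 283 shared regions 34 (12.0%) overlapped a RefSeq promoter window, against 1 of 52 gained regions (1.92%), 1 of 70 lost regions (1.43%) and 5 of 334 mixed regions (1.50%). The 1 gained region at a promoter was that of MT1B. Shared regions had a median width of 721 bp, gained regions 332 bp, lost regions 359 bp and mixed regions 214.5 bp. The median fold enrichment of gained regions was 4.28 in the sorafenib lists and that of lost regions 4.59 in the DMSO lists, while shared regions stood at 7.89 with sorafenib and 10.2 with DMSO. A gene span held 71.0% of shared, 46.2% of gained and 57.1% of lost regions.

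**Figure D3:**
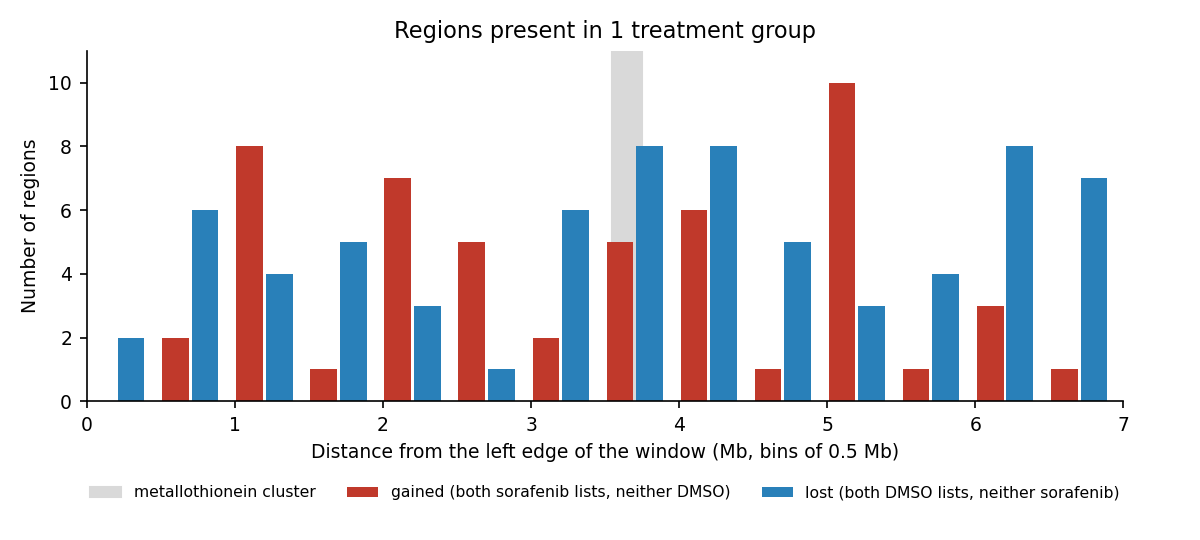
Numbers of gained (red) and lost (blue) regions in bins of 0.5 Mb along the stretch, by distance from its left edge in Mb, with the metallothionein cluster in grey. The bin with the cluster holds 5 gained and 8 lost regions, and the most gained regions, 10, lie in the bin that starts 5 Mb from the left edge.

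Peaks were narrower in the sorafenib lists as a whole, and less so in the cluster than in the flanks. Peaks covered 196826 and 189952 bp of the stretch with sorafenib, against 246217 and 258615 bp with DMSO. In the cluster they covered 14691 and 13842 bp (7.35% and 6.92%) with sorafenib, against 15281 and 15448 bp (7.64% and 7.72%) with DMSO. In the flanks they covered 2.68% and 2.59% with sorafenib, against 3.40% and 3.58% with DMSO. The median width of a region in the stretch was 299 and 309 bp with sorafenib and 495 and 443 bp with DMSO. Over shared regions alone, median covered length in the cluster was 630.5 and 497 bp with sorafenib and 635.5 and 629 bp with DMSO, and in the flanks 430 and 428 bp with sorafenib and 639 and 623 bp with DMSO. On the log2 scale, with each library centred, the cluster median exceeded the flank median by 0.55 and 0.22 with sorafenib, against -0.01 and 0.01 with DMSO. The difference of 0.38 did not overlap between the groups, and its exact two-sided permutation p was 0.333, the smallest possible with 2 against 2.

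The width test over shared regions called 32 of 283 wider (11.3%) and 13 narrower (4.59%) with sorafenib, against 6.46% and 2.84% of shared regions genome-wide. In the cluster MT2A, MT1E and MT1X were the wider regions among 16, and none was called narrower (limma; 6 higher and 1 lower at an unadjusted p under 0.05). The median log2 change in width was 0.35 in the cluster, 0.19 in the flanks and 0.18 genome-wide. MT2A ranked 2 of 283 by width change, and 0.179% of shared regions genome-wide changed as much or more. MT1X ranked 6 (0.909%) and MT1E 20 (5.98%). Without centring 5 regions of the stretch were called wider and 41 narrower, against 412 and 11027 of 75611 shared regions genome-wide. After quantile normalization none was called in either direction in the stretch (limma, with 57 higher and 38 lower at an unadjusted p under 0.05), and 0 were called genome-wide. The direction of width changes in the stretch is thus relative to the median of all shared regions, which was 0.18 with centring and -0.34 without it.

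By fold enrichment at the summit, 48 of the 283 shared regions were higher (17.0%) and 35 lower (12.4%) with sorafenib, against 16.9% and 10.1% of shared regions genome-wide. In the cluster 3 were higher and 1 lower of 16, and in the flanks 45 and 34 of 267. The median log2 change was 0.02 in the cluster, 0.07 in the flanks and 0.12 genome-wide. After quantile normalization the split was 31 higher and 36 lower, against 7579 and 8514 of 75611 shared regions genome-wide. Without centring the split was 11 higher and 62 lower, against 1675 and 13523 genome-wide, with a genome-wide median of -0.24. It was 31 and 20 without DMSO replicate 1 and 30 and 20 without DMSO replicate 2. The cluster median exceeded the flank median by 0.27 and 0.18 with sorafenib and by 0.27 and 0.34 with DMSO on the log2 scale, with the sorafenib values just below the DMSO values (difference -0.08, exact two-sided permutation p = 0.333). The cluster regions called were MT2A, MT1DP and the region just after MT2A as higher, and MT1X as lower. The region after MT2A (chr16:56609516-56610574) had fold enrichment of 4.85 and 4.55 with sorafenib, against 3.65 and 2.34 with DMSO (log2 change 1.04, SE 0.29, limma adjusted p = 0.020). That call was lost without DMSO replicate 2 (0.55, adjusted p = 0.151) and when the peaks of a region were averaged (0.69, adjusted p = 0.130). The other 12 shared regions of the cluster did not pass, with log2 changes from -0.36 to 0.33, among them the promoter of NUP93, a scaffold protein of the nuclear pore (13.6 and 14.4 with sorafenib, against 12.2 and 16.6 with DMSO).

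**Figure D4:**
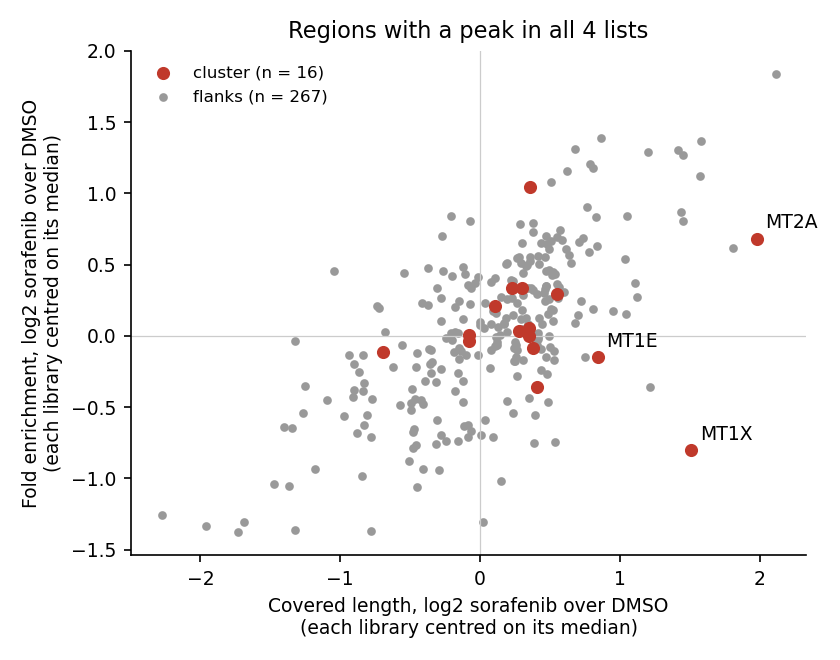
Log2 change of fold enrichment (vertical) against log2 change of covered length (horizontal), sorafenib over DMSO and centred per library, for the 283 shared regions, cluster in red and flanks in grey. MT2A lies high on both axes, and MT1X lies among the widest increases with a log2 enrichment change of -0.80.

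In the flanks the largest shared rise lay in CES5A, a carboxylesterase gene, at chr16:55949219-55949882. Its fold enrichment was 17.2 and 13.5 with sorafenib, against 4.33 and 6.88 with DMSO (log2 change 1.84, SE 0.21, limma adjusted p = 0.000192). CES5A also held the strongest gained region, chr16:55900748-55901355, with 10.9 and 12.6 in the sorafenib lists and no DMSO peak. The next 4, all between genes, had log2 changes of 1.39, 1.37, 1.31 and 1.30. One of them lay 2179 bp from IRX3, an Iroquois homeobox gene, with 6.82 and 8.82 with sorafenib and 3.52 and 4.56 with DMSO. The other strongly gained regions lay 1080 bp from CCL17, a T cell chemokine gene (9.77 and 8.90), inside NLRC5, an activator of MHC class I genes (7.65 and 6.87), and between genes at chr16:54493066-54493438 (8.08 and 8.40) and chr16:54201237-54201698 (6.85 and 6.43).

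Among the largest shared falls were regions in the spans of the pseudogene CES1P2 (log2 change -1.38), FTO (-1.37), the noradrenaline transporter gene SLC6A2 (-1.36) and LPCAT2 (-1.30). In FTO, which encodes an RNA demethylase, fold enrichment at chr16:53808923-53809800 was 5.51 and 4.21 with sorafenib, against 14.9 and 17.1 with DMSO (SE 0.21, limma adjusted p = 0.000846). In LPCAT2, a lysophospholipid acyltransferase gene, it was 7.43 and 6.73 with sorafenib, against 21.4 and 23.4 with DMSO (SE 0.16, limma adjusted p = 0.000263). The strongest lost regions lay in CNGB1, a cyclic nucleotide gated channel gene (9.65 and 13.5 in the DMSO lists), in LINC02169 (7.19 and 11.6), and at 2 places in or near LOC107984824 (11.3 and 17.1, and 10.1 and 16.7). NLRC5 held a lost region as well (chr16:56991709-56992180, 6.95 and 6.99 with DMSO). The widest shared region, 2265 bp, lay 6068 bp from MMP2 with 8.01 and 8.92 with sorafenib and 8.05 and 8.22 with DMSO (log2 change 0.42, adjusted p = 0.156).

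Across the 283 shared regions, log2 enrichment correlated between the sorafenib libraries with a Pearson r of 0.926, between the DMSO libraries with 0.916, and between a sorafenib and a DMSO library with 0.644 to 0.664. These are correlations across regions of single libraries, which share mappability and base composition, and are given as a description.

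Transcripts gave the plainest difference between the metallothionein genes and the other genes of the stretch. Of 171 RefSeq genes in the stretch 111 were in the RNA table and 54 had the mean of at least 10 normalized read counts needed for the test. Of these 23 were higher and 18 lower with sorafenib, against 34.4% and 35.8% of all 14915 genes tested. All 7 metallothionein genes tested were higher, of 15 in the table and 16 listed, with a median log2 change of 5.52. The 47 other genes gave 16 higher and 18 lower and a median of -0.02, next to -0.02 over all genes. Of the 7 metallothionein genes, MT1B, MT1G and MT1DP averaged 1.02, 0 and 5.59 counts with DMSO. They passed the filter only through their sorafenib values, so they could not have been called lower. MT2A, MT1E, MT1X and MT1F averaged above 10 in both groups. MT1JP, at 2.56 with sorafenib and 4.04 with DMSO, fell below the filter. Metallothionein genes are near-identical copies, so reads shared between them could be placed on the wrong member.

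MT2A stood at 63023, 57146 and 59424 normalized read counts with sorafenib, against 5235, 5770 and 6631 with DMSO (log2 change 3.35, SE 0.07, limma adjusted p = 2.57e-15). MT1E stood at 36072, 36286 and 35687 with sorafenib, against 1972, 2074 and 2380 with DMSO (4.08, SE 0.07, limma adjusted p = 4.67e-17). MT1X stood at 6289, 5322 and 5028 with sorafenib, against 43.9, 60.7 and 49.1 with DMSO (6.74, SE 0.11, limma adjusted p = 8.18e-17). For each of the 3 genes with wider peaks, all sorafenib libraries lay above all DMSO libraries.

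MT1F stood at 1112, 1131 and 1054 counts with sorafenib, against 30.4, 26.0 and 15.3 with DMSO (log2 change 5.52, SE 0.19, limma adjusted p = 1.54e-11). Its shared region, whose enrichment did not pass the test, covered the gene start in the sorafenib replicate 3 list only. In the other lists the peak ended just before the start. MT1DP stood at 184, 176 and 159 with sorafenib, against 2.25, 5.78 and 8.73 with DMSO (4.86, SE 0.33, limma adjusted p = 1.57e-09). MT1B, the gene with gained regions, stood at 835, 844 and 703 with sorafenib, against 1.12, 1.93 and 0 with DMSO. Its ratio of 757 rests on 2578 reads with sorafenib and 3 with DMSO, with a 95% interval from 259 to 3676 that covers counting error only. MT1G, with no peak over its span in any list, stood at 189, 158 and 194 with sorafenib and at 0 in all 3 DMSO libraries, which is at least 170-fold higher against a floor of 3 reads over the DMSO group. A covered gene span was therefore not a feature of every metallothionein with more transcript.

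Below the filter, MT1H had 2.53, 12.7 and 3.20 counts with sorafenib and MT4, known from stratified epithelium, 4.22, 2.72 and 12.8, both against 0 in all DMSO libraries. Each was at least 5.88-fold higher against the same floor. MT1A, MT1M, MT1CP and MT1JP averaged between 0.563 and 2.56 counts with sorafenib and between 0 and 4.04 with DMSO. MT3 and MT1L were at 0 in all 6 libraries, and no transcript values were matched to MT1IP. Of the promoters shown above, that of MT1H held as many metal response cores as MT2A, with no peak and a trace of transcript.

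**Figure D5:**
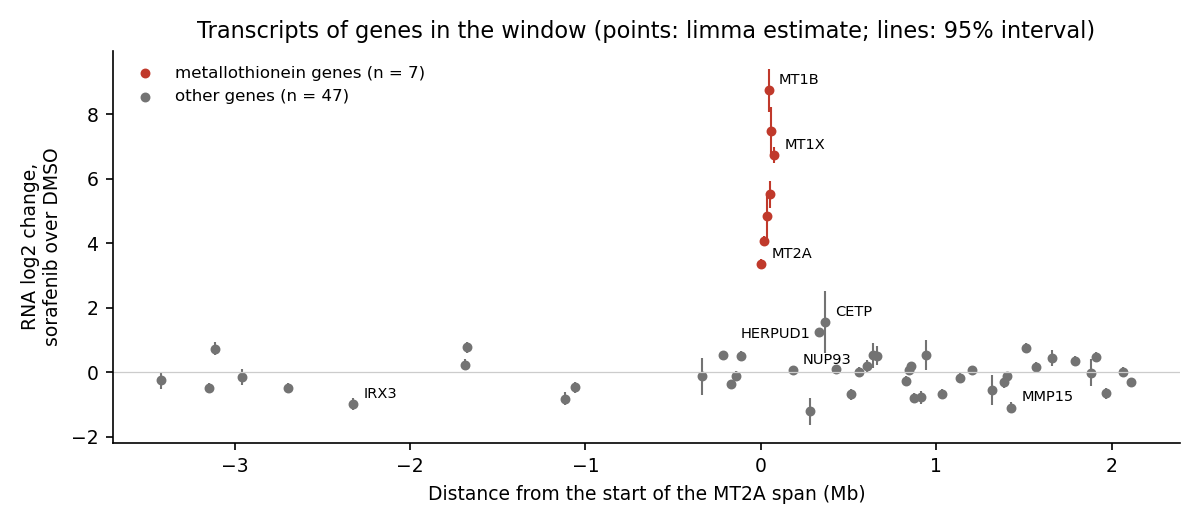
Log2 change of transcript level, sorafenib over DMSO, of the 54 tested genes by distance of the gene from the start of MT2A in Mb, with 95% intervals from limma, metallothionein genes in red and others in grey. The 7 metallothionein genes lie between 3.35 and 8.75, and the 47 others lie between -1.22 and 1.56.

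The nearest tested genes on each side of the metallothionein genes gave smaller log2 changes than the tested metallothioneins. NUP93, on the right, starts inside the cluster interval and runs past its edge. It averaged 3319 ± 65.5 counts with sorafenib and 3150 ± 98.4 with DMSO (SD, n = 3 each, log2 change 0.08, limma adjusted p = 0.237). BBS2, a gene of the ciliary BBSome on the left, outside the cluster, averaged 832 ± 21.8 with sorafenib and 585 ± 26.0 with DMSO (0.51, SE 0.07, limma adjusted p = 9.96e-06).

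Of the 4 genes listed under stress and quality control 3 rose, with a median log2 change of 0.52, against 34.4% of all tested genes. The list also holds BBS2, whose known role is ciliary. HERPUD1, which serves the degradation of proteins from the endoplasmic reticulum and is induced when they misfold, averaged 3802 ± 140 counts with sorafenib and 1593 ± 89.0 with DMSO (SD, n = 3 each; 1.25, SE 0.06, limma adjusted p = 3.53e-11). BBS2 rose as given above. OGFOD1, a ribosomal protein hydroxylase gene, did not pass (-0.11, adjusted p = 0.128).

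Of 7 tested genes for metalloproteinases, transport and lipid handling 4 fell and 1 rose, with a median of -0.47, against 35.8% lower and 34.4% higher of all tested genes. MMP15, a membrane-bound matrix metalloproteinase, averaged 547 ± 21.1 counts with sorafenib and 1174 ± 99.7 with DMSO (SD, n = 3 each; -1.10, SE 0.08, limma adjusted p = 2.52e-09). MMP2, the secreted gelatinase A, averaged 194 ± 15.0 with sorafenib and 343 ± 14.8 with DMSO (-0.82, limma adjusted p = 1.71e-06). LPCAT2 fell too (-0.47, limma adjusted p = 0.00013), as did the kidney sodium chloride transporter gene SLC12A3 at a low level (30.3 ± 3.57 with sorafenib and 71.5 ± 6.86 with DMSO). The member that rose was CETP, a plasma lipid transfer protein, with 15.5 ± 4.34 counts with sorafenib and 4.85 ± 2.38 with DMSO (1.56, limma adjusted p = 0.00622). CETP too passed the filter only through its sorafenib values.

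Developmental genes and the FTO locus gave 3 higher and 3 lower of 8 tested, with a median of -0.20. Those shares were near the 34.4% higher and 35.8% lower of all tested genes. The Iroquois homeobox genes moved in opposite directions. IRX5 averaged 778 ± 42.4 counts with sorafenib and 458 ± 43.4 with DMSO (0.77, limma adjusted p = 6.41e-07), and IRX3 averaged 295 ± 0.430 with sorafenib and 588 ± 57.0 with DMSO (-0.99, limma adjusted p = 5.28e-08). The shared region 2179 bp from IRX3 had the higher enrichment with sorafenib given above. FTO fell (-0.48, limma adjusted p = 9.57e-06) and AKTIP, a partner of the Hook motor adaptors, rose (0.73, limma adjusted p = 7.37e-06).

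Of the chemokine and inflammation genes only 3 of 7 were tested. ADGRG1, an adhesion receptor, fell (-0.68, limma adjusted p = 4.45e-07), ADGRG5 rose (0.54, limma adjusted p = 0.0372), and NLRC5, with gained and lost regions, did not pass (0.09, adjusted p = 0.22). CCL17, next to a strongly gained region, averaged 0.844 counts with sorafenib and 0 with DMSO. Of 16 housekeeping genes 6 rose and 6 fell, with a median of 0.08, near the same shares. They included CFAP20, a ciliary and flagellar protein gene (0.76, limma adjusted p = 4.77e-08), and CNOT1, the scaffold of the CCR4-NOT deadenylase (-0.65, limma adjusted p = 2.03e-06). DOK4, an adaptor of tyrosine kinases, and CCDC102A completed the largest falls, with log2 changes of -0.79 and -0.77.

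Genes were also grouped by the regions within 2 kb of their span. Outside the metallothioneins 4 tested genes had gained and no lost regions, and their median log2 change was -0.63. They were MMP15, IRX3 and the cytosolic iron-sulfur assembly gene CIAPIN1 (-0.27, limma adjusted p = 0.0028), which were lower, and RSPRY1 (0.18, adjusted p = 0.0902), which did not pass. The 13 with lost and no gained region gave 5 higher and 3 lower and a median of 0.01. The 5 with both gave 3 lower and 2 not called and a median of -0.48, and the 25 with neither gave 11 higher and 9 lower and a median of 0.06. Over all genes tested 34.4% were higher and 35.8% lower, and a link between these groups and transcript direction was not tested.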

How the data were processed

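Genes and peaks came from deposited tables. The submitters' processing notes name hg38 and these tools, with no role or order: MACS2 2.2.7.1, SAMtools, Picard, Bowtie2 2.4.1, HISAT2 1.1.0, cutadapt, DESeq2 and featureCounts 1.6.1. The RNA signal values were normalized read counts made by the authors, and dividing out 1 unit per library gave whole reads for 100% of values within 0.001. In the deposited peak lists the ratio (fold enrichment at the summit), the score (10 times the −log10 q), the −log10 q and the −log10 p came from the authors' peak caller. The lowest −log10 q was 1.3, and each list belonged to 1 library.

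RNA columns named a group but no sample, so they were used as replicates without pairing, and 0 columns were left unmapped. Regions were tested with limma 3.58.1 (R 4.3.3, trend, robust, two-sided) on log2 of the highest fold enrichment, and of the covered length, of 75611 shared regions, each library centred on its median. Genes were tested with limma on log2(normalized read count + 1) with a mean of at least 10, so fold changes of low genes are understated. Adjusted p-values followed Benjamini and Hochberg over all features, with a threshold of 0.05. Main RNA calls were 5137 higher and 5347 lower of 14915. On recovered reads edgeR 4.0.16 called 5367 and 5076, and DESeq2 1.42.0 called 4848 and 5126. Single values were compared between libraries by exact permutation. Intervals and floors cover counting error only.

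The members, gene lists, motifs and naming rules were chosen with earlier results of these data known. The naming rule took every cluster region, of which those not called are partly given as counts and ranges, and every metallothionein gene with a read. In the flanks it took the 5 gained and 5 lost regions with the highest −log10 q, the 5 largest shared rises and falls past the threshold and the widest shared region. Other genes named were the 5 largest rises and falls with a mean of at least 100 and examples from each list. One item that these rules picked is not reported here. Alternatives were other centring, equally many top peaks per list, peaks of a −log10 q of at least 5, peaks covering at least 50% of a region, mean peak values, pseudocounts of 0.5 and 5, no filter, TMM factors, a replicate block and leaving out each library.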

Additional observations from a re-analysis of the deposited data

How the results depend on the processing

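Counts of regions depended on the peak threshold and on which libraries were used. With peaks of a −log10 q of at least 5, 26 regions of the stretch and 0 of the cluster were gained, and with peaks covering at least 50% of a region 127 and 7 were lost. Leaving out 1 ATAC-seq library gave 53 to 138 gained and 88 to 134 lost regions in the stretch, and 3 to 6 gained and 4 to 8 lost in the cluster, with 6 gained without either sorafenib library and 8 lost without DMSO replicate 1. That test could only keep or raise these counts, because each list left out removes a condition that gained or lost regions must meet. Enrichment calls ran from 30 to 35 higher and 20 to 31 lower under the same test. They were 11 higher and 62 lower without centring, against 1675 and 13523 of 75611 shared regions genome-wide. After quantile normalization 31 were higher, against 7579 genome-wide. Width calls were 5 higher and 41 lower without centring, against 412 and 11027 of 75611 shared regions genome-wide. They were 0 and 0 by limma after quantile normalization, where 0 of the shared regions genome-wide were called as well. Leaving out 1 library leaves 1 in a group, so no counts of width calls are given for it. Without centring the log2 enrichment change of the MT1DP region was -0.0257, its width change was -0.2235 and the width change of the region after MT2A was -0.1694, all with the opposite sign. The log2 enrichment fall of the MT1X region ran from -0.9164 to -0.6881 over the libraries left out and was called each time. With 1 RNA library left out, genes of the stretch called higher ran from 20 to 24 and lower from 16 to 19, and 25 were higher with no filter. In all, 7 metallothionein genes were called higher under each alternative, or 9 with no filter. Of the 7, MT1B, MT1G and MT1DP averaged 1.02, 0 and 5.59 counts with DMSO and could not have been called lower. The genes added with no filter had a mean under 10 counts. No paired analysis was possible because the ATAC-seq groups share no replicate number in their titles, although their file names number both groups 1 and 2. For RNA, deviations of columns with the same number correlated by -0.027, 0.029 and -0.056, so no strong effect shared by number was seen. These correlations cannot show whether the samples were made as pairs. A fit with the replicate block called 21 higher and 18 lower genes in the stretch, and 4992 and 5201 in all. The cause of these differences was not tested. The peak lists hold no read numbers, so depth limits cannot be given for them.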
